A study of Mus musculus with 6 samples.

Results

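Mouse genes named Zfp900 to Zfp999 encode zinc finger proteins, most of them members of large families that lie side by side on the chromosomes. A gene was taken as a member where its name in the count table was Zfp9 followed by 2 further digits, which gave 65 of 51826 rows, or 64 symbols, since Zfp935 stood under 2 identifiers. Of these rows, 64 were annotated as protein coding, while Zfp939 was a transcribed pseudogene. Enough counts for the test were found for 53 members, and the other 12 did not pass the filter on low counts, although each had at least 1 count in some library.

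The C2H2 zinc finger is a short loop of protein that holds a zinc ion with a pair of cysteines and a pair of histidines, and strings of such fingers read DNA sequence. Many of these proteins also carry a KRAB domain, which recruits TRIM28 and the histone methyltransferase SETDB1 and silences transposable elements. Their genes arise by repeated local duplication, and copy number and sequence differ between mouse strains. The target of most members has not been worked out, so no role is given here for single genes beyond the family.

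Bulk RNA-seq was performed on the cortex of young male mice at day 3 after whole-brain irradiation with 10 Gy. The 3 Lgmn+/+ IR libraries came from wild-type mice and the 3 Lgmn-/- IR libraries from mice lacking Lgmn, the gene of asparagine endopeptidase, a lysosomal protease. All 6 samples were irradiated, and the study lists both genotypes as BALB/c. The knockout descends from a single targeted ES cell clone that was passed through BALB/c blastocysts and crosses with Flp and Cre mice. The line carrying the floxed allele and Flp is also listed as BALB/c, whereas the strain of the ES cells, the Cre driver and the strain of the Cre mice are not given in the sources used here. Any sequence that came with the ES cells or the Cre mice was not measured, and its effect and that of the loss of Lgmn cannot be told apart. The sources do not say that each library is a separate mouse, so p-values measure the spread between these samples.

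Libraries held 41874462 to 46829441 counts. Lgmn itself fell from 129 ± 1.66 to 82.5 ± 11.6 CPM (counts scaled to a common library size, mean ± SD, n = 3), a log2 fold change of -0.64 (SE 0.12, edgeR quasi-likelihood adjusted p = 0.0315). This size is short of the fold threshold used below. Counts were given for the whole gene, and the deleted part was not examined on its own. Markers of cortical neurons were detected in every library. All 5 erythroid markers rose, from a summed 7.59 to 15.81 CPM in Lgmn+/+ IR to 233.58 to 2272.56 CPM in Lgmn-/- IR. Oligodendrocyte markers summed to 2089.64 to 2534.77 CPM in Lgmn+/+ IR against 1470.22 to 1626.49 CPM in Lgmn-/- IR, and astrocyte markers to 765.82 to 891.38 and 1011.31 to 1132.49 CPM, with 0 of 4 genes called in either list. Microglial markers summed to 111.09 to 122.37 and 95.47 to 100.49 CPM with 0 of 4 called. Interneuron, endothelial and choroid plexus markers overlapped between genotypes with 0 called. Striatal neuron markers varied widely within each genotype, from 344.72 to 1318.77 CPM in Lgmn+/+ IR and from 266.43 to 1259.22 CPM in Lgmn-/- IR, with 0 of 5 called. The part of these cell types in the results below was not tested, and in bulk tissue fewer cells of a type and less RNA per cell cannot be told apart.

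The first finger of each of the 4 members past the adjusted threshold is given, because these fingers are the part of the gene that defines the family. Each is 63 bases of coding sequence within 1 exon of GRCm38 (GENCODE M21), written 5′ to 3′ on the strand of the gene. Capitals mark the codons of the cysteines and histidines that hold the zinc ion, and codons of other cysteines are in lower case. They lie at chr4:147613330-147613392 (Zfp979, minus strand), chr17:21661716-21661778 (Zfp983, plus strand), chr9:88569270-88569332 (Zfp949, plus strand) and chr17:22339650-22339712 (Zfp944, minus strand).
Zfp979: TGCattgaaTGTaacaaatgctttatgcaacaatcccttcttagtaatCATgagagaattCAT
Zfp983: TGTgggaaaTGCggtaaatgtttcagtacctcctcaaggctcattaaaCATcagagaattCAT
Zfp949: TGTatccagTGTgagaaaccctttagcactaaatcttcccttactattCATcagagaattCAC
Zfp944: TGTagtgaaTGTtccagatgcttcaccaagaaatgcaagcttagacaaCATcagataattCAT
Between pairs of these genes, 36 to 43 of the 63 bases were identical. A finger was counted only where its cysteines and histidines had the spacing of the sequences above, so fingers of other spacing were missed. Across all members, 61 of the 64 with a coding sequence held at least 1 such finger. These members ranged from 2 to 21 such fingers with a median of 11. Zfp979 held 3 such fingers, against 10 in Zfp983 and 11 each in Zfp949 and Zfp944.

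Members were read mostly at low levels, and the typical difference between genotypes was small, as it was over all genes. The 53 tested members had a median mean level of 4.92 CPM, from 0.265 to 24.4 CPM. All 65 members summed to 338 ± 9.88 CPM in Lgmn+/+ IR against 348 ± 11.9 CPM in Lgmn-/- IR (mean ± SD, n = 3), with overlapping libraries. The median log2 fold change (Lgmn-/- IR minus Lgmn+/+ IR) was 0.0041 over tested members and -0.0125 over all 18345 genes tested, and the median size regardless of sign was 0.2441 and 0.2093. The size was under 0.5 in 43 of 53 tested members and in 14823 of all 18345 genes tested.

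A gene was called a differentially expressed gene (DEG) at an adjusted p below 0.05 with a log2 fold change beyond 1 in either direction. By this rule, 2 of 53 tested members (3.77%) were DEGs, 1 higher (Zfp979) and 1 lower (Zfp983) in Lgmn-/- IR. The share over all genes tested was 2.06% (0.959% higher and 1.1% lower). At an adjusted p below 0.05 alone, 4 members (7.55%) were past the threshold, with 3 higher and 1 lower, beside 3.33% of all genes (1.65% higher and 1.68% lower). The 3 libraries of each genotype did not overlap in CPM for 19 tested members (35.8%), 10 higher and 9 lower. Over all genes tested the share without overlap was 25.7% (12.4% higher and 13.3% lower). This comparison used CPM, so raw counts can overlap where library sizes differ, as in Zfp956. At an unadjusted p below 0.05 there were 14 members (26.4%), beside 18.6% of all genes. With 2 and 4 calls the shares at the adjusted p rest on few genes, and Zfp979 entered the tested set only through its counts in Lgmn-/- IR. All these counts take near-identical copies, described below, as separate members.

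**Figure D1:**
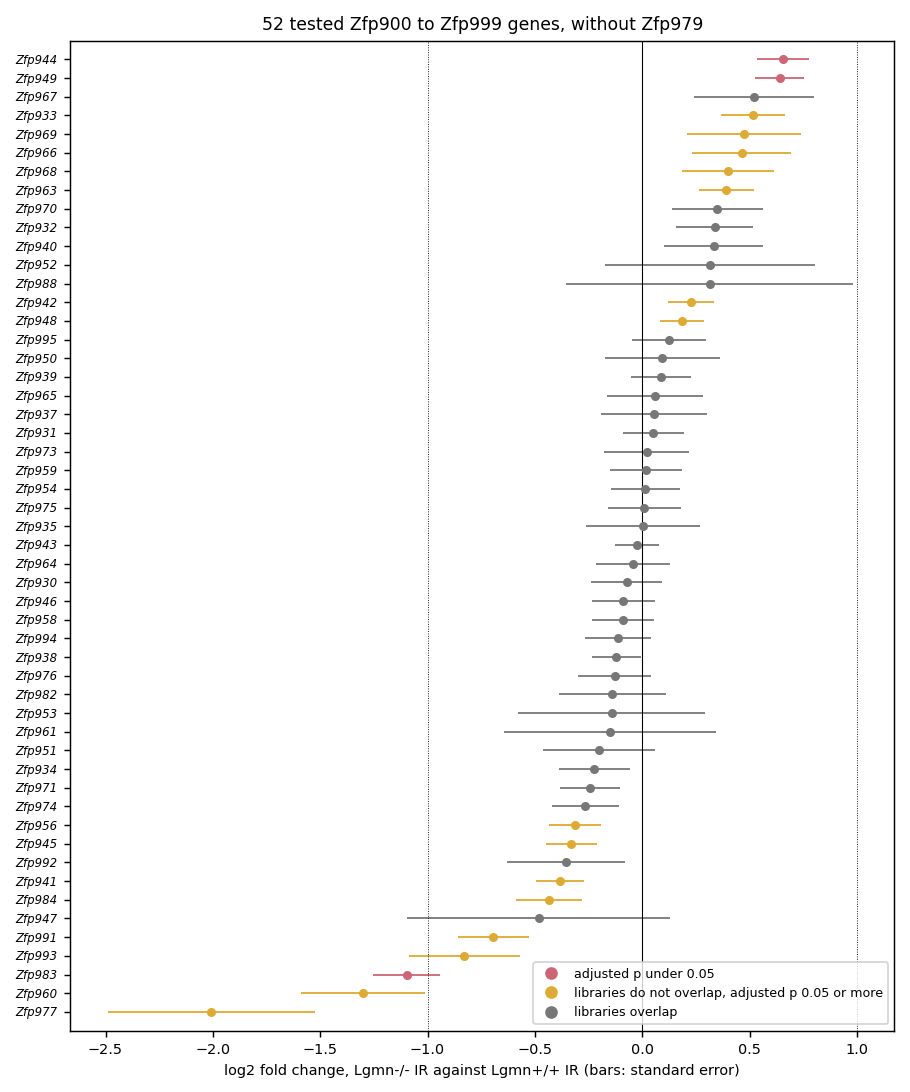
Log2 fold change with its standard error for the 52 tested members other than Zfp979, ordered by size on the vertical axis, with dotted lines at -1 and 1. The colours mark members with an adjusted p under 0.05, members whose libraries do not overlap without reaching it, and members whose libraries overlap. Most points lie near 0, and Zfp983 is the only one past both the adjusted p and the fold threshold.

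Zfp979 (ENSMUSG00000066000) was the 1 member near absent in one genotype and present in the other. Its counts were 0, 0 and 0 in Lgmn+/+ IR against 31, 17 and 23 in Lgmn-/- IR, so no read was assigned to it in any Lgmn+/+ IR library. The level in Lgmn-/- IR was 0.529 ± 0.166 CPM (n = 3), a low level that was at least 7.70-fold higher than the 3 counts per library that a count of 0 allows. The adjusted p was 0.0184 (edgeR quasi-likelihood). A member counted here when every library of one genotype had 3 counts or fewer and every library of the other had 10 or more, which 1 of 53 members met, beside 0.342% of the 17838 genes with 10 or more counts in every library of at least one genotype. It lies at chr4:147611937-147642513 on the minus strand. Of the 100-base windows of its transcript, 83.01% were found in no other gene, as were 75.4% of its 50-base windows. The pseudogene Gm13155, which overlaps it on the same strand, had 0, 0 and 0 counts in Lgmn+/+ IR against 1, 0 and 0 in Lgmn-/- IR. The call was lost without Lgmn-/- IR replicate 1 (adjusted p = 0.053) or without Lgmn-/- IR replicate 3 (adjusted p = 0.0745).

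The neighbouring member along chromosome 4 is Zfp985, which was also listed at 0 in all 3 Lgmn+/+ IR libraries and had 2, 0 and 5 counts in Lgmn-/- IR, too few to test. The 250 bases before the annotated start of these genes are shown together with those of Zfp980, the member whose upstream sequence was most like that of Zfp979, and of Zfp983 as the member that fell. They were read from RefSeq on GRCm38.p6, 5′ to 3′ on the strand of the gene, with each CG dinucleotide in capitals. The windows are chr4:147642509-147642758 (Zfp979, minus strand), chr4:145670447-145670696 (Zfp980, plus strand), chr4:147553027-147553276 (Zfp985, plus strand) and chr17:21650361-21650610 (Zfp983, plus strand).
Zfp979: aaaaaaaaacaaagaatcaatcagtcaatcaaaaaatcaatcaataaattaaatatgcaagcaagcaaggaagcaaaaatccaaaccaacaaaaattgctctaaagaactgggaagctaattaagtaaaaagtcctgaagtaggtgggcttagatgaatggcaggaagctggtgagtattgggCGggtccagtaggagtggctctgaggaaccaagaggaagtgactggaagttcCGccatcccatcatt
Zfp980: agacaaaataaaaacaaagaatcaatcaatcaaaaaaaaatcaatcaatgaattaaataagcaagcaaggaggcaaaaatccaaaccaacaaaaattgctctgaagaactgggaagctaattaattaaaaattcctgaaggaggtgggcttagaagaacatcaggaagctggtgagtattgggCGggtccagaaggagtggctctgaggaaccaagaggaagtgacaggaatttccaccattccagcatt
Zfp985: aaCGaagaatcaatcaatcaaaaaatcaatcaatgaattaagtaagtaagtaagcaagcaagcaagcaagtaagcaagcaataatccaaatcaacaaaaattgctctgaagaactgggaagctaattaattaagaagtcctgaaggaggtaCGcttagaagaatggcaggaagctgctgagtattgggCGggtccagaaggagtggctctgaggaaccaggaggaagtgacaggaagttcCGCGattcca
Zfp983: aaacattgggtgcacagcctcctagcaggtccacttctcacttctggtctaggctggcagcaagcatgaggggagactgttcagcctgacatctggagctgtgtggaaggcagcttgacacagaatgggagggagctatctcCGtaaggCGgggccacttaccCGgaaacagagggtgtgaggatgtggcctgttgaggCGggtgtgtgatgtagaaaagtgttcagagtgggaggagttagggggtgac
Aligned end to end, Zfp979 shared 227 of 255 columns (89.02%) with Zfp980 and 216 of 266 columns (81.2%) with Zfp985, against 143 of 300 (47.67%) with Zfp983. Zfp980 itself had 2, 0 and 0 counts in Lgmn+/+ IR against 1, 1 and 1 in Lgmn-/- IR. Zfp982, the next most alike member at 83.46% and not shown, had 40, 37 and 49 counts against 42, 33 and 42. Whether the upstream sequence bears on these levels was not tested. The CG counts were 2, 1, 5 and 4 in the order shown. As many CG or fewer were held by 29%, 18.8%, 49.6% and 44.4% of the 32851 mouse promoter windows of this length, and 92.1% of those windows held at least 1. The 62 windows of members covered 54 symbols and had a median of 6 CG, the same median as all windows.

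Zfp983 (ENSMUSG00000035868, chr17:21650624-21664966, plus strand) fell in Lgmn-/- IR. Counts were 364, 300 and 291 in Lgmn+/+ IR against 157, 158 and 145 in Lgmn-/- IR, which gave 7.31 ± 1.10 and 3.41 ± 0.116 CPM (n = 3). Every Lgmn-/- IR library lay below every Lgmn+/+ IR library, and the log2 fold change was -1.10 (SE 0.16, adjusted p = 0.0139, edgeR). Its transcript shared little sequence with other genes, with 98.43% of 100-base windows and 90.17% of 50-base windows unique. Without Lgmn+/+ IR replicate 1 the log2 fold change was -0.97, short of the fold threshold, and without Lgmn+/+ IR replicate 2 or Lgmn-/- IR replicate 3 the adjusted p was 0.0645 or 0.0588.

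Zfp949 and Zfp944 rose by less than the fold threshold. Zfp949 (ENSMUSG00000032425, chr9:88548020-88571061, plus strand) had 780, 829 and 890 counts in Lgmn+/+ IR against 1347, 1523 and 1143 in Lgmn-/- IR, with no overlap. The level was 19.1 ± 0.691 against 29.7 ± 3.42 CPM (n = 3), and the log2 fold change was 0.64 (SE 0.11, adjusted p = 0.0293, edgeR). On the deposited FPKM values the same gene differed less, at 0.32 on log2(FPKM + 0.1) (limma adjusted p = 0.328). Zfp944 (ENSMUSG00000033972, chr17:22337989-22361400, minus strand) had 318, 279 and 318 counts in Lgmn+/+ IR against 505, 525 and 454 in Lgmn-/- IR, again with no overlap. The level was 6.99 ± 0.469 against 11.0 ± 0.575 CPM (n = 3), and the log2 fold change was 0.66 (SE 0.12, adjusted p = 0.0326, edgeR). Leaving out any single library took the adjusted p of Zfp944 to between 0.0631 and 0.153, and in 5 of 6 such fits that of Zfp949 was also above 0.05. Both calls were also lost with no filter on low counts (adjusted p = 0.0512 for Zfp944 and 0.055 for Zfp949), and that of Zfp944 by limma on log2(FPKM + 0.1) (0.082) and log2(FPKM + 1) (0.0854).

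**Figure D2:**
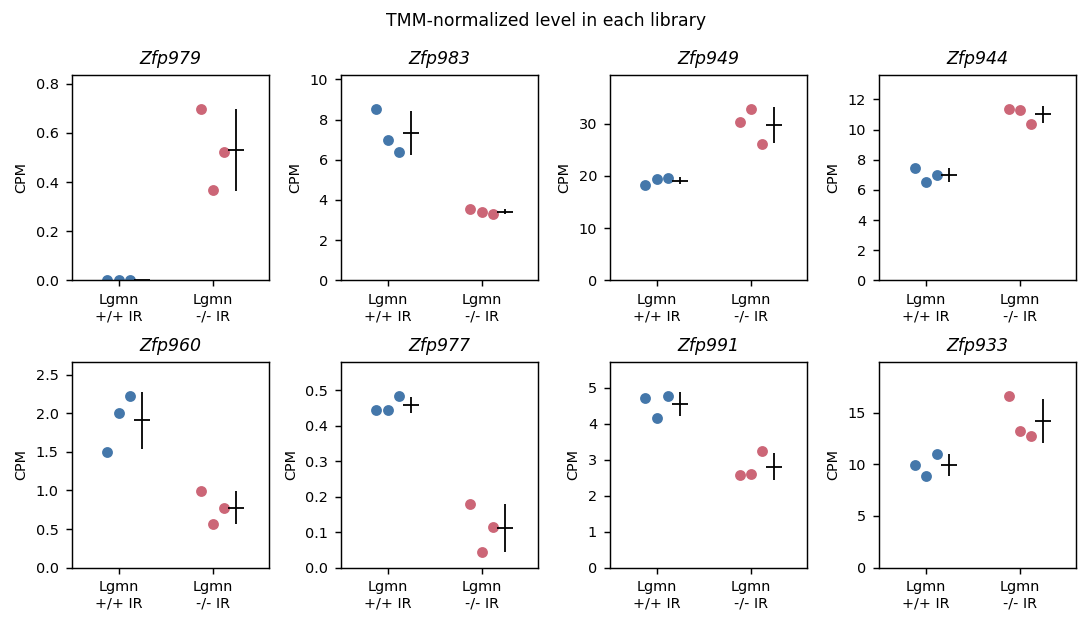
TMM-normalized CPM in each library for 8 members, with points for libraries, a horizontal mark for the mean and a bar for the SD (n = 3 per genotype), each axis starting at 0. Zfp979 is at 0 in all 3 Lgmn+/+ IR libraries, and in every panel the genotypes do not overlap, although Zfp960, Zfp977, Zfp991 and Zfp933 had an adjusted p of 0.0641 to 0.131.

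The other members whose libraries did not overlap were chosen for description after their values were seen, and none passed the adjusted threshold by edgeR. Zfp977 (chr7:42579783-42592547) had 19, 19 and 22 counts in Lgmn+/+ IR against 8, 2 and 5 in Lgmn-/- IR, a log2 fold change of -2.01 (SE 0.48, edgeR adjusted p = 0.079). Counts stayed above 0 in each Lgmn-/- IR library, so the gene was low rather than absent there. For Zfp991 the counts were 201, 178 and 217 against 115, 121 and 142 (log2 fold change -0.69, adjusted p = 0.0779), and for Zfp993 they were 49, 37 and 40 against 23, 26 and 24 (-0.83, adjusted p = 0.152). Zfp933 gave 425, 378 and 499 counts in Lgmn+/+ IR against 737, 612 and 560 in Lgmn-/- IR (0.51, adjusted p = 0.131). DESeq2 gave an adjusted p under 0.05 for Zfp960 (0.00556), Zfp991 (0.0173), Zfp933 (0.0378) and Zfp977 (0.0488), of which Zfp960 and Zfp977 also passed the fold threshold. By limma on FPKM, Zfp977 was under 0.05 with either pseudocount (adjusted p = 0.0364 on log2(FPKM + 0.1) and 0.0387 on log2(FPKM + 1)), and Zfp991 on log2(FPKM + 1) alone (0.0405).

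Near-identical copies limited what could be read for several members. Of the 65 members, 22 fell into 8 groups. A group was joined by matches of 95% identity or more over at least 80% of 1 gene's transcript, so not every pair matched. Of all members, 14 had under 50% of their 100-base windows to themselves, 3 of them none. A window counted as unique when no annotated transcript of another gene held it exactly, so any mismatch made it unique. Zfp960 (chr17:17064113-17089628) had 64, 86 and 101 counts in Lgmn+/+ IR against 44, 26 and 34 in Lgmn-/- IR, a log2 fold change of -1.30 (SE 0.29, edgeR adjusted p = 0.0641). Of its windows, 30.84% were unique (15.51% with windows of 50 bases). Its copy Zfp97, 98.757% identical, had 96, 111 and 148 against 78, 54 and 60 counts. Summed, the pair gave -1.06 (SE 0.24, adjusted p = 0.062), so the pair as a whole was lower without passing the threshold. Reads common to both genes can enter either count, so a fall of each gene on its own cannot be read from these counts. The group of Zfp991, Zfp992, Zfp993 and Znf41-ps gave -0.67 when summed (SE 0.14, adjusted p = 0.0517). The group of 8 members on chromosome 2 gave 0.12 (adjusted p = 0.578) when summed. Zfp970 and Zfp971 were joined to it through Zfp965 alone and had 80.61% and 86.23% of their windows to themselves. With windows of 50 bases these shares were 42.83% and 57.62%. Zfp966, Zfp967, Zfp968 and Zfp969, which matched at 100%, gave 0.46, 0.52, 0.40 and 0.47 alone (edgeR adjusted p = 0.334 to 0.394).

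A larger difference stood in a copy that is no member. Gm15446 (chr5:109923400-109943936, plus strand), a protein-coding gene 97.394% identical to Zfp932 and near it on chromosome 5, was named after its values were seen. It had 621, 442 and 490 counts in Lgmn+/+ IR against 35, 31 and 24 in Lgmn-/- IR, a log2 fold change of -4.15 (SE 0.23, edgeR adjusted p = 0.000189). Zfp932 (chr5:109996521-110010411) had 533, 421 and 409 counts against 601, 705 and 477, with overlapping libraries and a log2 fold change of 0.34 (SE 0.18, adjusted p = 0.365). Summed, the pair had 1154, 863 and 899 counts in Lgmn+/+ IR against 636, 736 and 501 in Lgmn-/- IR (-0.69, SE 0.18, adjusted p = 0.0951). Of the windows of Zfp932, 73.11% were unique, but only 44.49% with windows of 50 bases. How reads common to both genes were shared out is not given in the sources used here.

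**Figure D3:**
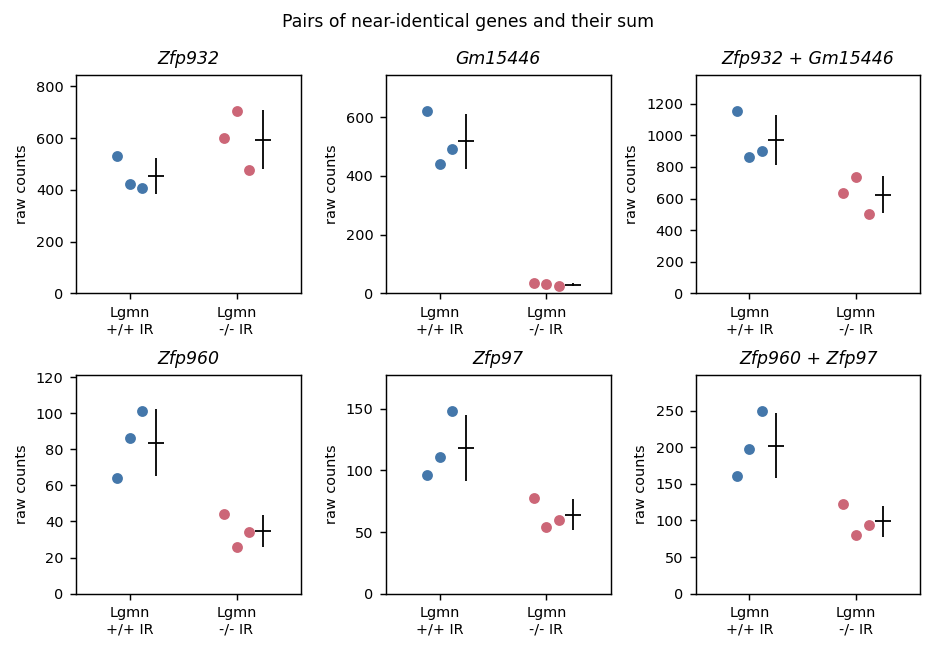
Raw counts of Zfp932 with its copy Gm15446 and of Zfp960 with its copy Zfp97, each gene alone and summed, with points for libraries and the mean and SD (n = 3 per genotype) beside them. Gm15446 falls to 24 to 35 counts in Lgmn-/- IR while Zfp932 overlaps between genotypes. The counts listed for Zfp960 and Zfp97, which share sequence, are both lower.

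**Figure D4:**
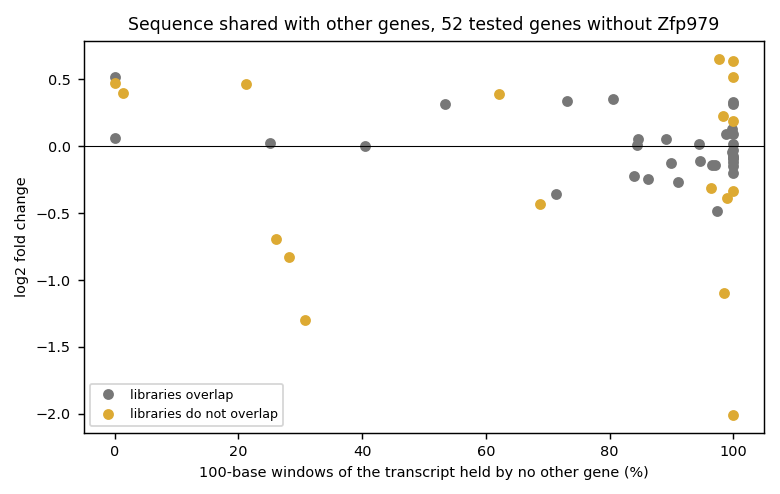
Log2 fold change of the 52 tested members other than Zfp979 against the percentage of 100-base transcript windows held by no other gene, coloured by whether the libraries overlap. Members with few windows of their own and members with nearly all their own windows both include genes whose libraries do not overlap.

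Members lay in 7 clusters, defined as members less than 2 Mb apart, which held 48 of 65, and 17 stood alone. The chromosome 4 cluster (chr4:145510759-147848366) held 16 members, 8 of them tested, and had members in both directions: Zfp979 and Zfp933 were higher without overlap, and Zfp991, Zfp993 and Zfp984 lower. Its members summed to 22.8 ± 1.69 CPM in Lgmn+/+ IR against 23.8 ± 2.46 CPM in Lgmn-/- IR. Zfp981, in the same cluster, had 8, 0 and 6 counts in Lgmn+/+ IR against 0, 0 and 0 in Lgmn-/- IR, which was not tested. The chromosome 17 cluster (chr17:21567008-22867134) had 10 tested members, with 1 DEG (Zfp983), and summed to 84.9 ± 2.39 and 85.0 ± 3.49 CPM. Within it Zfp944 rose, while Zfp942 and Zfp948 were higher and Zfp945 lower without passing the threshold. The chromosome 2 cluster (chr2:175372436-178078476) had 9 tested members and 0 DEGs, and Zfp966, Zfp968 and Zfp969 were higher without overlap, all with near-identical copies. Clusters on chromosomes 7, 8 and 13 held 0 member DEGs.

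**Figure D5:**
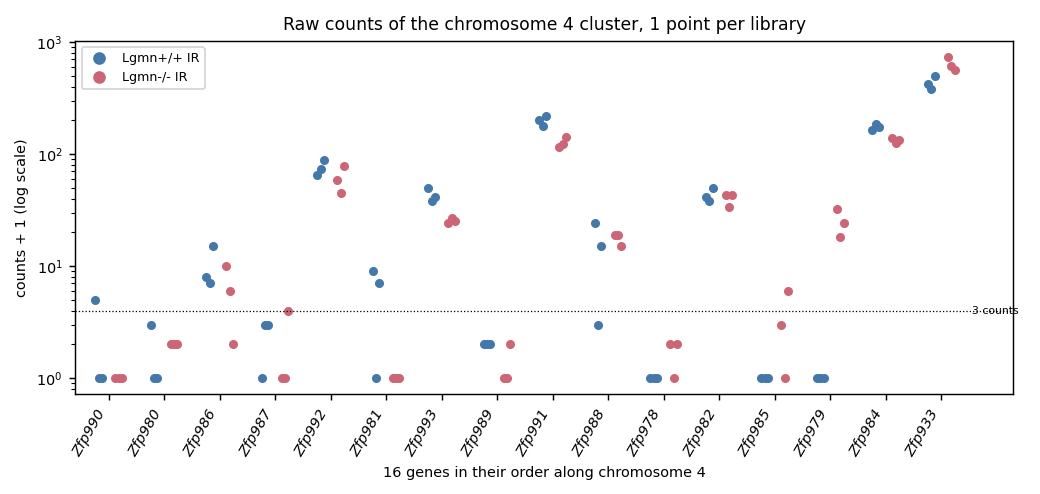
Raw counts plus 1 on a log scale for the 16 members of the chromosome 4 cluster in gene order, with 1 point per library and genotypes in colour, and a dotted line at 3 counts. Zfp979 stands at 0 counts in Lgmn+/+ IR and 17 to 31 in Lgmn-/- IR, while 8 of the 16 members have few counts in both genotypes.

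Some members varied between libraries of 1 genotype by more than between genotypes. Zfp952 had 124, 525 and 638 counts in Lgmn+/+ IR against 528, 553 and 553 in Lgmn-/- IR, so Lgmn+/+ IR replicate 1 stood low. Zfp961 had 108, 262 and 325 against 102, 214 and 322, with a wide range in each genotype. Neither passed the threshold (edgeR adjusted p = 0.772 and 0.895). The highest levels were in Zfp956 (1140, 1016 and 979 against 798, 989 and 821 counts, log2 fold change -0.31, adjusted p = 0.235), Zfp949 and Zfp938 (824, 695 and 762 against 764, 715 and 681, -0.12, adjusted p = 0.621). Among members with a log2 fold change under 0.1 in size, the 3 with the highest levels were Zfp943 (732, 647 and 716 against 723, 724 and 671 counts, -0.03), Zfp954 (0.01) and Zfp950 (0.09).

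The other numbered Zfp genes gave 1 DEG among 290 tested: Zfp772 (chr7:7202117-7209998) rose from 186, 196 and 208 counts to 446, 464 and 420 (log2 fold change 1.13, SE 0.12, edgeR adjusted p = 0.00358). This 1 DEG was 0.345% of them, beside 2.06% of all genes tested. Their libraries did not overlap in 68 genes, or 23.4%, beside 25.7% of all genes. Among 33 genes whose products work with KRAB zinc finger proteins, such as Trim28 and Setdb1, 0 were DEGs by edgeR or by DESeq2. By edgeR 2.06% of all genes tested were DEGs, so a list of 33 is too short to read this 0 as a difference. An unadjusted edgeR p under 0.05 was found for 3 (9.09%), beside 18.6% of all genes. The median size of change was 0.0885 on the log2 scale, beside 0.2093 over all genes, at a higher median level (35.6 against 13.6 CPM). The clusters also held 106 tested genes that are no members, with 2 DEGs (1.89%, beside 2.06% of all genes tested). Both lay in the chromosome 7 cluster at chr7:27907392-29853669, which held 60 of the 106. Nccrp1 rose from 14, 12 and 8 counts to 39, 41 and 51 (1.89, SE 0.33, adjusted p = 0.0293), and Map4k1, a kinase of blood cells, fell from 65, 72 and 81 to 28, 37 and 35 (-1.16, SE 0.22, adjusted p = 0.0401). Leaving out any single library ended both calls, with an adjusted p of 0.0596 to 0.117 for Nccrp1 and 0.0707 to 0.151 for Map4k1, while Zfp772 stayed past the threshold at 0.0142 to 0.0298.

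The 12 members that were not tested had between 0 and 36 counts in any library. The upper value came from 1 of the 2 Zfp935 entries (ENSMUSG00000055228), with 0, 14 and 1 counts in Lgmn+/+ IR against 2, 1 and 36 in Lgmn-/- IR. Only 0.65% of its 100-base windows were unique, and it matched the other Zfp935 entry at 100%, so its counts cannot be read alone. Summed, the 2 entries gave a log2 fold change of 0.05 (edgeR adjusted p = 0.916). Zfp990 was counted in 1 library alone (4, 0 and 0 against 0, 0 and 0), as was Zfp936 (0, 0 and 0 against 2, 0 and 0). Fitted without the filter, their adjusted p ranged from 0.375 (Zfp981) to 0.928 (Zfp987).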

How the data were processed

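Total RNA from cortex was sequenced on a DNBSEQ-T7. Reads were trimmed by the authors (Trimmomatic 0.36, submitters' processing notes), aligned by HISAT2 and quantified by StringTie. The deposited tables hold raw counts and FPKM per gene on GRCm38. How reads shared between near-identical genes were counted, and whether by strand, is not given in the sources used here.

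Counts were tested with edgeR 4.0.16 in R 4.3.3 (quasi-likelihood, TMM, filterByExpr, Benjamini-Hochberg over 18345 genes), with no fit on the list alone. DESeq2 1.42.0, limma 3.58.1 (voom, and log2(FPKM + 0.1) or log2(FPKM + 1)), other filters, a replicate block and leaving out each library were alternatives. The fitting code was tested on simulated data. Total counts per library were 41874462 to 46829441. The values 0 in a library allow up to 3 counts, for counting error only. Replicates differed beyond sampling noise.

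Positions came from GENCODE M21, copies and windows from BLAST 2.17.0+ on its transcripts, and promoters from RefSeq. The transcript with the longest coding sequence stood for each gene. Members and lists were chosen with earlier results of these data known. Named genes were Lgmn, members past the adjusted threshold or at the floor of 3 counts, the 3 with the highest level, the 3 highest among those with a log2 fold change under 0.1 in size, called KRAB partners and other Zfp genes, and up to 5 called genes inside clusters. Others are marked as chosen after their values were seen.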

Additional observations from a re-analysis of the deposited data

How the results depend on the processing

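The 2 member DEGs became 4 by DESeq2 or with no threshold on the fold, 3 on log2(FPKM + 0.1) (Zfp977 added), 1 with at least 10 counts in every library (Zfp979 is then not tested), 0 on log2(FPKM + 1), and 0 to 2 leaving out 1 library, with 0 without Lgmn-/- IR replicate 3 and 1 without Lgmn+/+ IR replicate 1, Lgmn+/+ IR replicate 2 or Lgmn-/- IR replicate 1. They stayed at 2 with copies summed. The 377 DEGs among all genes became 593 by DESeq2, 228 with at least 10 counts, 175 on log2(FPKM + 1), 611 with no fold threshold, and 213 to 347 leaving out 1 library. The 2 non-members called inside clusters became 4, 1, 0 and 5 in the same order, 1 with no filter, 0 with clusters cut at gaps of 0.5 Mb, and 0 to 1 leaving out 1 library. The 1 other Zfp gene called became 2 on log2(FPKM + 0.1), 0 on log2(FPKM + 1), 3 with no fold threshold, and 1 to 4 leaving out 1 library. KRAB partners gave 0 to 1 leaving out 1 library. The count of 1 member at the floor became 0 with a floor of 10 counts and 30 or more in the other genotype. Lgmn gave -0.634 with no filter (adjusted p = 0.0632) and -0.739 to -0.539 leaving out 1 library (adjusted p = 0.0312 to 0.125, above 0.05 when any one Lgmn+/+ IR library or Lgmn-/- IR replicate 1 was left out). The cause of these shifts was not tested.

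Adding replicate number as a block was tried although same-numbered samples share only a number. Their deviations from the group means correlated at -0.252, -0.0464 and -0.0276. Under that block the DEG counts were 0 members, 139 of all genes, 0 inside clusters and 0 other Zfp genes, and Lgmn gave -0.653 (adjusted p = 0.113). Zfp983 and Zfp979 then had an adjusted p of 0.0742 and 0.131.

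Directions that turned were all in genes that passed no threshold. On log2(FPKM + 0.1) and log2(FPKM + 1), Zfp954 gave -0.013 and -0.01, Zfp969 -0.134 and -0.083, Zfp945 0.044 and 0.039, and Zfp961 0.105 and 0.064. Leaving out 1 library, Zfp943 ranged from -0.065 to 0.034, Zfp954 from -0.124 to 0.129, Zfp950 from -0.093 to 0.316, Zfp961 from -0.604 to 0.181, and Zfp952 from -0.108 to 0.678. Gm15446 stayed past the threshold in all 14 alternatives, from -4.282 to -2.128. Few counts limit Zfp979, Zfp977 and the untested members. Shared sequence limits the copies on chromosomes 2 and 4, Zfp932 with Gm15446, Zfp960 with Zfp97, and the Zfp935 entries.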
